A study of Homo sapiens with 12 samples.

Results

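The comparison set 3 RNA libraries of HCT-116 cells in which SHP2 had been silenced by short hairpin RNA, and which were then given CPT-11 for 24 h, against 3 libraries of untreated, wild-type HCT-116 cells. HCT-116 is a human colorectal carcinoma line, and CPT-11 (irinotecan) is a drug converted in cells to a poison of topoisomerase I. The libraries were taken by their titles and were 6 of the 12 in the series, which asks how DNA damage bears on the cGAS-STING pathway in colon cancer. The other 6 came from wild-type cells given CPT-11 alone (3 libraries) or lovastatin for 4 h and then CPT-11 (3 libraries), and are used here only to show where the silenced cells differed from cells that had the drug without the hairpin. No group had the hairpin without the drug or a control hairpin, so the effects of hairpin and drug on a difference from untreated cells cannot be told apart within this comparison. For the silenced samples the treatment label mentions lovastatin too, although neither title nor protocol does. How the hairpin was delivered, and whether the silenced cells were a pool or 1 clone, is not given in the sources used here. The labels do not state whether replicates were separate cultures. The p-values below thus reflect the spread among these libraries, which may be technical.

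SHP2, the product of PTPN11, is a tyrosine phosphatase that binds to activated receptors and docking proteins and is needed for full signalling from receptor tyrosine kinases through RAS to the kinase ERK. ERK in turn switches on genes that dampen it again, among them DUSP phosphatases and Sprouty proteins, and these serve as a readout of the pathway. CPT-11 leaves topoisomerase I stuck on DNA, and replication turns this into breaks that activate p53 and the checkpoint that holds cells before mitosis. Cytosolic DNA is sensed by cGAS and signals through STING to interferons and to genes they induce.

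Promoters are shown for 2 groups of genes taken up below: mitotic genes that fell together, and interferon-stimulated genes of which some rose and others did not pass the test. Each stretch is the DNA just before the gene's start in RefSeq (build GRCh38.p14), read 5′ to 3′ on the strand of the gene, which is minus for IFI6 and plus for the others. In the mitotic genes the capitals mark TTTGAA on either strand, the core of the cell-cycle element known as CHR. The 4 stretches cover the 100 bases before the start.
PLK1, chr16:23678789-23678888: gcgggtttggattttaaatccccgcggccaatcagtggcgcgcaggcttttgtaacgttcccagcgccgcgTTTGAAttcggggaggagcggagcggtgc
CCNB2, chr15:59105046-59105145: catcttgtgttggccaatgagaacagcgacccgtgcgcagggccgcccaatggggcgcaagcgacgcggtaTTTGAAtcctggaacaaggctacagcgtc
BUB1B, chr15:40160969-40161068: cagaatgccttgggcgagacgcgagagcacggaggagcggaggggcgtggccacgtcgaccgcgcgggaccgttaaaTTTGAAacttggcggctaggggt
KIF11, chr10:92593030-92593129: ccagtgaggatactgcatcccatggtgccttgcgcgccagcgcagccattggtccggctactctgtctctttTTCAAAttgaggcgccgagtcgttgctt
The first base of the match lay 29, 29, 23 and 28 bases before the start in PLK1, CCNB2, BUB1B and KIF11. Within 250 bases before the start, TTTGAA on either strand was found in 17 of the 32 promoters of the mitotic list that the RefSeq table held (53.1%), against 3704 of all 27305 promoters (13.6%). Among members that fell, 14 of 24 promoters held it, and among tested members that did not pass the test, 3 of 8 did. CCAAT on either strand, the box bound by NF-Y, was in 24 of the 32 (75.0%) and in 9021 of all 27305 promoters (33.0%). Its share was the same in members that fell (18 of 24) and in tested members that did not pass (6 of 8). These are matches of letters, not measured binding sites.

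In the interferon-stimulated genes the capitals mark the repeat GAAA, any 2 bases, GAAA on either strand, the core of the interferon-stimulated response element, and overlapping matches run together. The 4 stretches cover the 170 bases before the start.
ISG15, chr1:1013327-1013496: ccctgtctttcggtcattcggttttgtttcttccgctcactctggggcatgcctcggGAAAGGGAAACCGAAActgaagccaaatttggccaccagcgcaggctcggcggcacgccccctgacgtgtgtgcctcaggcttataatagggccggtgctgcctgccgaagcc
IFI6, chr1:27672193-27672362: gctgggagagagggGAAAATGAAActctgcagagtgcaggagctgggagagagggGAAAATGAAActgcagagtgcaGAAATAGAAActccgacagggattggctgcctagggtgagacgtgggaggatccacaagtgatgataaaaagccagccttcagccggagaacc
IFIT1, chr10:89392453-89392622: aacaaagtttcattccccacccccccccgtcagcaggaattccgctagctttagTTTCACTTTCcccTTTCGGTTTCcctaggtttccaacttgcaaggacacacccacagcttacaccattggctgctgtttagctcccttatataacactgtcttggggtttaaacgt
IFIT3, chr10:89327827-89327996: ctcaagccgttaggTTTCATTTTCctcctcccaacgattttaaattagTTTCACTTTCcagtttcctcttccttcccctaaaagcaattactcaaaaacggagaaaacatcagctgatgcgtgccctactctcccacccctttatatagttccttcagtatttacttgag
IFI6 held 3 matches and the other promoters 2 each. The motif was present within 250 bases before the start in 19 of the 36 promoters of the list (52.8%), against 839 of all 27305 (3.07%). It was found in 9 of 15 promoters of members that rose and in 9 of 16 promoters of tested members that did not pass the test, so both kinds of member held it.

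PTPN11 (ENSG00000179295, GRCh38 chromosome 12, 112418351 to 112509913, plus strand) measured 6.01, 6.54 and 7.15 FPKM in silenced cells, against 53.3, 53.8 and 55.4 FPKM in untreated cells. Every silenced library was far below every untreated library, with a log2 difference of -2.87 ± 0.06 (adjusted p = 1.1e-06), and this was the largest fall among protein-coding genes. Differences, and the values given with every rise and fall, are silenced minus the other group on log2(FPKM + 1), ± the standard error from limma, and FPKM is the number of reads per length of gene after scaling to the typical gene. The 6 libraries held 14447847 to 16224271 reads assigned to genes. The silenced libraries also differed from the untreated ones in 2 marks of library composition. Counts rose with the GC content of a gene by 0.132, 0.115 and 0.102 log2 units per 10 percentage points in the silenced libraries, against slopes of -0.013, -0.092 and -0.14 in the untreated ones, relative to the mean of all 12. RN7SL2, an RNA of the signal recognition particle, measured 1469.5, 1065 and 1230.2 FPKM in silenced cells and 155, 98.8 and 71.1 FPKM in untreated cells. The slopes do not overlap between the groups. Each library was also corrected for its dependence on GC content and length (GC correction). Where this, another scaling or filter, or a left-out library turned the direction of a gene list or moved its larger count by over 1.5 times, such counts stand beside it. Of 17 markers of other cell types 4 were detected well enough to be tested, and their summed level over all 17 was 10.62, 9.70 and 8.96 FPKM in silenced cells against 5.58, 5.14 and 4.58 FPKM in untreated cells. COL1A1, ACTA2 and ITGAM were higher and VWF did not pass the test, whereas PTPRC, CD3E, DCN, LUM and HBB were at or near 0, with means of at most 0.0179 FPKM in either group. Their part in the results was not tested.

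Of 17025 genes tested, 7739 differed from untreated cells at an adjusted p under 0.05 (45.5%). Of these, 3828 were higher (22.5% of those tested) and 3911 were lower (23%) in silenced cells with CPT-11. The counts of each gene list below stand against these shares. The higher share of the calls was 49.5%, but it was 62.1% (4877 higher and 2976 lower) when each library was scaled to its total of reads. Most changes were small on the log2(FPKM + 1) scale, and 5984 of the calls (77.3%) were under 1.5-fold in FPKM + 1. Changes of at least 2-fold in FPKM + 1 numbered 246 higher genes (1.44%) and 83 lower genes (0.488%). Adding 1 understates changes of genes at low levels, so further genes may exceed 2-fold in FPKM itself. The median difference over all genes was 0.001.

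**Figure D1:**
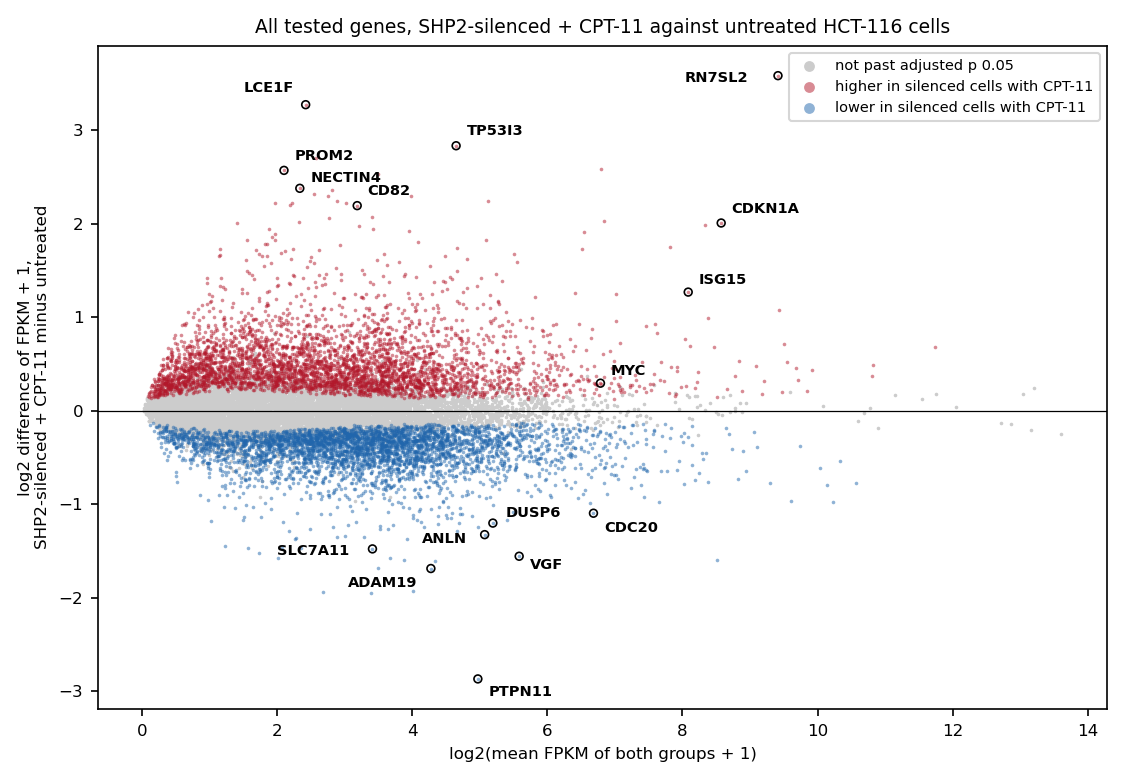
Difference of each of the 17025 tested genes between SHP2-silenced cells with CPT-11 and untreated cells (y axis, log2 difference of FPKM + 1) against its mean level in both groups (x axis, log2 of mean FPKM + 1). Red points are higher and blue points lower in silenced cells at an adjusted p under 0.05, grey points did not pass. PTPN11 lies at -2.87, below all other genes, and RN7SL2, LCE1F and TP53I3 lie highest among the circled genes.

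The largest rises and falls are ranked on log2(FPKM + 1), which places genes of low untreated level further down than their ratio of FPKM would. Among protein-coding genes with a mean of at least 5 FPKM in the higher group, the largest rise was that of LCE1F (ENSG00000240386, GRCh38 chromosome 1, 152776372 to 152776728, plus strand), which encodes a late cornified envelope protein of the skin barrier. It had 51, 44 and 55 reads in silenced cells, or 9.33, 7.30 and 9.53 FPKM, and 0 reads in each untreated library. Against a floor of 3 reads per untreated library, LCE1F was at least 15.6-fold higher in silenced cells. TP53I3, a p53 target that encodes a quinone oxidoreductase, measured 41.8, 44.01 and 43.2 FPKM in silenced cells, against 6.04, 4.99 and 4.57 FPKM in untreated cells. PTAFR, the receptor for platelet-activating factor, measured 9.16, 9.48 and 9.38 FPKM in silenced cells, against 0.558, 0.442 and 0.792 FPKM in untreated cells. Both rose in every silenced library, by 2.83 ± 0.08 (adjusted p = 2.2e-06) and 2.70 ± 0.09 (adjusted p = 2.7e-06). PROM2, which encodes prominin 2 of membrane protrusions, measured 6.51, 6.80 and 5.73 FPKM in silenced cells, against 0.308, 0.187 and 0.212 FPKM in untreated cells, a log2 difference of 2.57 ± 0.09 (adjusted p = 2.7e-06). The adhesion molecule NECTIN4 measured 7.48, 7.40 and 7.52 FPKM in silenced cells, against 0.690, 0.522 and 0.677 FPKM in untreated cells. EBI3, a subunit of the cytokines interleukin 27 and interleukin 35, measured 8.80, 8.49 and 9.01 FPKM in silenced cells, against 0.699, 0.983 and 1.21 FPKM in untreated cells. Neither gene's groups overlapped, and their differences were 2.38 ± 0.08 (adjusted p = 2.6e-06) and 2.32 ± 0.10 (adjusted p = 9.0e-06). Completing the 10 largest rises, TCTEX1D4 differed by 2.29 ± 0.17, CYSRT1 by 2.23 ± 0.11, the sortilin-like receptor SORCS2 by 2.22 ± 0.07 and the tetraspanin CD82 by 2.19 ± 0.08, each without overlap between the groups and with an adjusted p of at most 6.0e-05.

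After PTPN11, the largest fall was that of ADAM19, a membrane-bound metalloproteinase. It measured 8.79, 8.55 and 7.24 FPKM in silenced cells, against 29.3, 29.2 and 27.2 FPKM in untreated cells. TNIK, a kinase that acts with TCF4 in Wnt signalling, measured 6.35, 6.39 and 6.03 FPKM in silenced cells, against 20.6, 20.9 and 21.6 FPKM in untreated cells. Silenced cells were lower in each library of both, with differences of -1.69 ± 0.07 (adjusted p = 9.0e-06) and -1.60 ± 0.05 (adjusted p = 2.6e-06). VGF, a secreted neuropeptide precursor, measured 27.02, 24.6 and 18.4 FPKM in silenced cells, against 83.5, 70.2 and 57.9 FPKM in untreated cells with a wide spread in both groups and no overlap (-1.56 ± 0.16, adjusted p = 2.2e-04). SLC7A11, the cystine transporter that supplies glutathione synthesis, measured 4.27, 4.57 and 5.03 FPKM in silenced cells, against 14.01, 14.9 and 15.1 FPKM in untreated cells, a difference of -1.48 ± 0.07 (adjusted p = 1.0e-05). VCAN, the matrix proteoglycan versican, measured 13.3, 13.8 and 14.1 FPKM in silenced cells, against 31.8, 36.1 and 37.4 FPKM in untreated cells, with no overlap (-1.29 ± 0.07, adjusted p = 1.4e-05). The transporter SLC16A6 (-1.34 ± 0.10), the contractile ring protein ANLN (-1.33 ± 0.08), the guidance cue SEMA3A (-1.29 ± 0.09) and the calcium sensor SYT1 (-1.26 ± 0.08) complete the 10 largest falls, all with an adjusted p of at most 6.7e-05.

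Against cells given CPT-11 alone 4161 of 17025 genes differed (24.4%), a count that ran from 1158 without CPT-11 replicate 1 to 7869 without CPT-11 replicate 3, depending on which of the 6 libraries was left out. It was 580 in a fit of those 6 libraries alone and 3150 after GC correction. CPT-11 replicate 3 stood apart from its group, with a GC slope of 0.08, against -0.15 and -0.176 in replicates 1 and 2. Of the genes named below as past the test against CPT-11 alone, SYT1, BBC3, BAX, BAK1, FAS, HMMR, CENPF, PLK4, TMEM173, IFIT1, IFIT3, BIRC3 and CD274 did not pass in the fit of 6 libraries, and HBEGF lost its call when CPT-11 replicate 1 or 2 or silenced replicate 1 or 3 was left out. All of them passed after GC correction, with the direction kept. Against lovastatin with CPT-11 1325 differed (7.78%), 512 of them higher (3.01%), and 626 to 763 when 1 of the 6 libraries was left out. ANLN, SEMA3A, NRAS and CLDN7 lost their calls against that group without some single libraries, lovastatin and CPT-11 replicate 3 and silenced replicate 1 among them. These comparisons share the silenced libraries with the one against untreated cells. ADAM19 measured 21.3, 21.6 and 22.8 FPKM with CPT-11 alone and 21.1, 21.9 and 22.8 FPKM with lovastatin and CPT-11, and silenced cells were lower than both, at -1.32 ± 0.07 (adjusted p = 4.0e-06) and -1.32 ± 0.07 (adjusted p = 1.0e-06). Of the 10 falls, VGF passed neither of those tests, SYT1 passed that against CPT-11 alone (-0.40 ± 0.10, adjusted p = 0.019) and not that against lovastatin and CPT-11 (adjusted p = 0.67), and the others were lower in both. After GC correction VGF passed against CPT-11 alone (-0.72) and against lovastatin and CPT-11 (-0.86).

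Genes that p53 switches on rose together. Of 14 tested targets that arrest growth, 13 rose and 0 fell, where 22.5% of all genes rose and 23% fell, with a median difference of 1.01. Both drug groups without the hairpin showed a similar rise over untreated cells. The median of the list was 1.09 in the CPT-11 group and 1.13 in the lovastatin group. Silenced cells differed from the CPT-11 group by a median of 0.006, with 2 members higher and 5 lower. CDKN1A, the inhibitor p21 of cyclin-dependent kinases (ENSG00000124762, GRCh38 chromosome 6, 36676460 to 36687339, plus strand), measured 596, 606 and 626 FPKM in silenced cells, against 157, 154 and 142 FPKM in untreated cells. SFN, the 14-3-3 sigma protein that holds cells before mitosis, measured 509, 498 and 539 FPKM in silenced cells, against 140.4, 128 and 119.8 FPKM in untreated cells. Every silenced library lay far above every untreated one for both, with differences of 2.01 ± 0.06 (adjusted p = 1.8e-06) and 1.99 ± 0.07 (adjusted p = 2.7e-06). GDF15, a secreted stress factor, measured 355, 339 and 338 FPKM in silenced cells, against 117, 95.4 and 94.1 FPKM in untreated cells, and PHLDA3, an inhibitor of AKT, measured 36.6, 37.6 and 39.6 FPKM in silenced cells, against 11.6, 10.6 and 9.78 FPKM in untreated cells. Differences were 1.75 ± 0.08 and 1.75 ± 0.07. The antiproliferative gene BTG2 measured 46.99, 45.96 and 49.7 FPKM in silenced cells, against 23.4, 21.3 and 20.4 FPKM in untreated cells (1.10 ± 0.06, adjusted p = 1.7e-05). GADD45B was the member that did not pass the test, at 8.04, 7.96 and 7.43 FPKM in silenced cells and 7.46, 6.05 and 6.62 FPKM in untreated cells (adjusted p = 0.079).

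Of 17 p53 targets that act in repair and metabolism, 16 rose and 0 fell, with a median of 0.91. Here too the drug groups without the hairpin rose over untreated cells, with medians of 1.04 (CPT-11 group) and 1.03 (lovastatin group). Silenced cells differed from the CPT-11 group by a median of -0.058, with 2 members higher and 3 lower. FDXR, the ferredoxin reductase of mitochondria, measured 148, 146 and 146 FPKM in silenced cells, against 41.2, 36.3 and 37.01 FPKM in untreated cells. SERPINB5, the serpin maspin, measured 51.6, 51.8 and 53.2 FPKM in silenced cells, against 13.5, 14.3 and 14.2 FPKM in untreated cells. Replicates of both genes were close to each other and far from the other group, with differences of 1.92 ± 0.05 (adjusted p = 1.8e-06) and 1.83 ± 0.04 (adjusted p = 1.3e-06). DDB2 and XPC, which recognise ultraviolet lesions in nucleotide excision repair, rose by 1.497 ± 0.07 and 0.91 ± 0.05, and POLH, the polymerase that bypasses such lesions, by 0.81 ± 0.06. RRM2B, the p53-induced subunit of ribonucleotide reductase, rose by 0.80 ± 0.06. TP53INP1 measured 29.8, 30.8 and 31.6 FPKM in silenced cells, against 11.4, 11.2 and 10.8 FPKM in untreated cells (1.39 ± 0.05, adjusted p = 2.7e-06). TIGAR did not pass the test, at 0.911, 0.561 and 1.19 FPKM in silenced cells and 0.911, 0.911 and 0.793 FPKM in untreated cells.

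Among genes of the p53 feedback loop, 5 of 8 rose and 2 fell. MDM2, the ligase that degrades p53, measured 46.2, 48.3 and 51.7 FPKM in silenced cells, against 18.3, 20.6 and 21.4 FPKM in untreated cells, and PPM1D, the phosphatase that ends p53 signalling, measured 31.3, 30.1 and 33.1 FPKM in silenced cells, against 11.5, 11.97 and 13.01 FPKM in untreated cells. They rose by 1.24 ± 0.07 (adjusted p = 1.8e-05) and 1.31 ± 0.06 (adjusted p = 1.0e-05). COP1, another ligase for p53, fell, at -0.36 on the log2 scale. MDM4, the partner of MDM2, fell and TP73 rose, at -0.31 ± 0.07 and 0.32 ± 0.08, and both calls were lost after correction for GC content and length.

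Death receptors and pro-apoptotic members of the BCL2 family were among the genes that rose, and of BCL2, BCL2L1, MCL1, CFLAR, BIRC3, BIRC5 and XIAP, which protect cells from death, only XIAP passed, as lower. Of 30 tested genes, 15 rose and 1 fell, with a median of 0.27. BBC3, the BH3-only protein PUMA, measured 27.8, 25.8 and 28.7 FPKM in silenced cells, against 9.60, 9.03 and 7.63 FPKM in untreated cells. BAX, which opens the mitochondrial outer membrane, measured 51.6, 50.6 and 55.2 FPKM in silenced cells, against 25.8, 23.7 and 19.6 FPKM in untreated cells. Both stood clear of untreated cells (1.55 ± 0.08, adjusted p = 1.6e-05; 1.161 ± 0.09, adjusted p = 7.0e-05). FAS measured 11.5, 12.9 and 13.3 FPKM in silenced cells, against 5.18, 5.71 and 6.37 FPKM in untreated cells, and the TRAIL receptor TNFRSF10B measured 56.8, 58.3 and 57.5 FPKM in silenced cells, against 39.3, 35.7 and 36.9 FPKM in untreated cells, with differences of 1.01 ± 0.08 and 0.61 ± 0.05. The decoy receptor TNFRSF10C rose by 1.25 ± 0.10 and BIK by 1.15 ± 0.06. BCL2, BCL2L1 and MCL1 differed by -0.03, -0.14 and 0.04 and did not pass. XIAP, an inhibitor of caspases, fell, at -0.24, a call that was lost under several other settings, GC correction among them. The medians of the list over untreated cells were 0.32 in the CPT-11 group and 0.37 in the lovastatin group. Against CPT-11 alone, 7 of the 30 members were higher and 9 lower in silenced cells, where 11.2% of all genes were higher and 13.2% lower. The median of that difference was -0.028. BBC3, BAX and BAK1 were among the higher ones, by 0.98 ± 0.22, 0.55 ± 0.15 and 0.57 ± 0.15, and FAS and PMAIP1 among the lower ones, at -0.52 and -0.46. The calls against CPT-11 alone of BBC3 (adjusted p = 0.066 in limma), BAX (0.076), BAK1 (0.081) and FAS (0.059) were lost in the fit of 6 libraries. Leaving out CPT-11 replicate 1 also ended those of BBC3, BAX and BAK1, and after GC correction the difference of BBC3 from CPT-11 alone was 0.48.

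Genes of mitosis were lower as a group, and in RNA from bulk cultures fewer cells in mitosis and less of these RNAs per cell cannot be told apart. Of 38 tested members, 29 fell and 0 rose, and the median difference was -0.63, against 0.001 over all genes. PLK1, the kinase that drives entry into mitosis, measured 12.96, 13.8 and 14.6 FPKM in silenced cells, against 32.5, 31.8 and 31.1 FPKM in untreated cells. CDC20, which activates the anaphase-promoting complex, measured 60.8, 64.9 and 67.6 FPKM in silenced cells, against 151, 138 and 129 FPKM in untreated cells. In both, every silenced library was well below every untreated one, with differences of -1.15 ± 0.05 (adjusted p = 1.0e-05) and -1.10 ± 0.07 (adjusted p = 2.6e-05). CCNB1 and CCNB2, the B-type cyclins, measured 47, 49.6 and 52.9 and 15.8, 17.5 and 19.3 FPKM in silenced cells, against 82.6, 89.9 and 89.4 and 30.4, 28.9 and 30.9 FPKM in untreated cells. Spindle checkpoint kinases fell too, BUB1 at -1.03 and BUB1B at -0.91 on the log2 scale. CENPF, a protein of the kinetochore, measured 16.9, 17.9 and 18.1 FPKM in silenced cells, against 38.1, 44.4 and 47.1 FPKM in untreated cells, and the spindle motor KIF11 measured 14.4, 13.99 and 13.7 FPKM in silenced cells, against 21.4, 24.1 and 24.8 FPKM in untreated cells. Their differences were -1.24 ± 0.08 and -0.70 ± 0.06. CDK1 did not pass the test at 38.4, 43.7 and 44.4 FPKM in silenced cells and 40.9, 39.2 and 41.7 FPKM in untreated cells, nor did AURKB at 31.8, 33.7 and 32.7 FPKM in silenced cells and 37.4, 27.5 and 27 FPKM in untreated cells or MYBL2 (0.13 ± 0.07). The count kept its direction after GC correction, with 31 members lower and 1 higher. Both drug groups without the hairpin were also below untreated cells, with list medians of -0.37 (CPT-11 group) and -0.62 (lovastatin group). Against CPT-11 alone, 17 of the 38 members were lower and 3 higher in silenced cells, where 13.2% of all genes were lower and 11.2% higher. ANLN, HMMR, CENPF and PLK4 were among the lower ones, at -0.95, -0.68, -0.62 and -0.60.

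**Figure D2:**
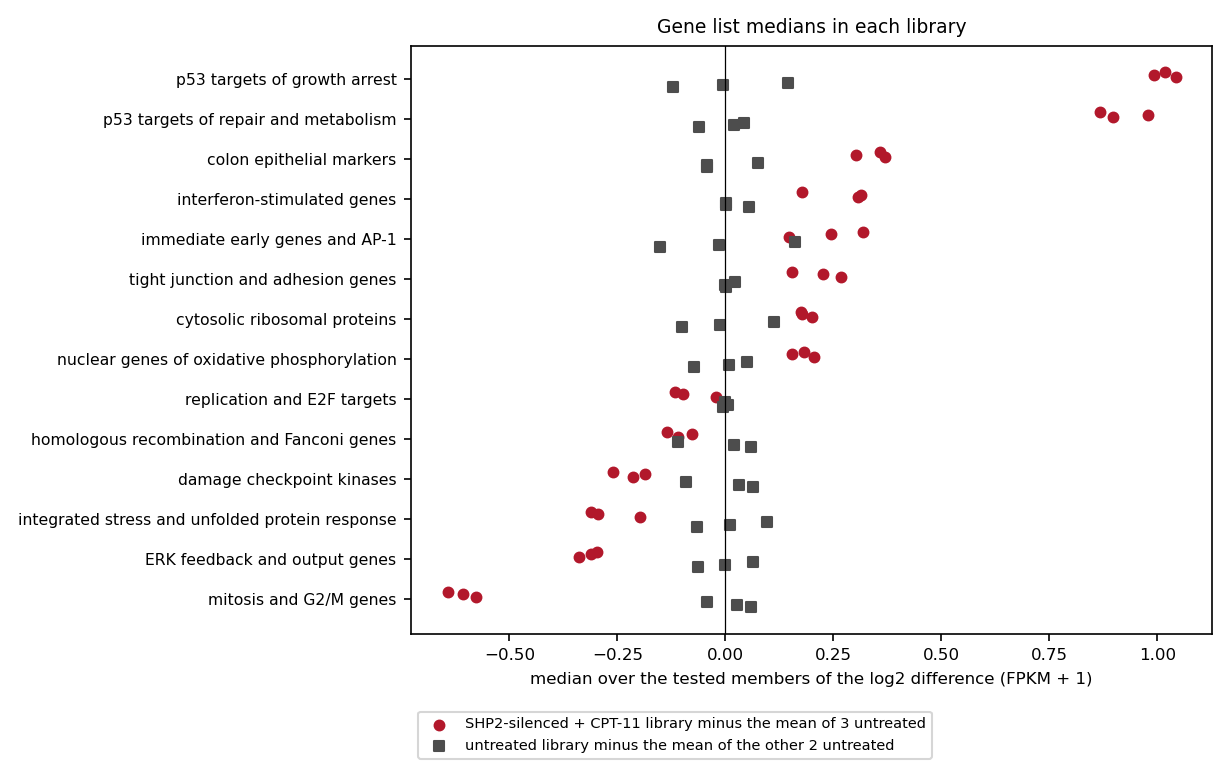
Median log2 difference over the tested members of 14 gene lists. Red circles are the 3 silenced libraries with CPT-11, each minus the mean of the 3 untreated libraries, and grey squares the untreated libraries, each minus the mean of the other 2. Growth arrest targets of p53 lie near 1.01 and mitotic genes near -0.63, well apart from the untreated libraries, whereas 1 silenced library overlaps an untreated one for immediate early genes, and both groups overlap for homologous recombination genes.

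DNA replication genes did not move as a block. Of 40 members, 16 fell and 10 rose, but 11 fell and 12 rose when libraries were scaled to their totals. The helicase subunits MCM5 and MCM7 measured 19.7, 20.4 and 21.6 and 81.3, 79.6 and 83.1 FPKM in silenced cells, against 32.2, 29.4 and 27.99 and 117, 109.7 and 107 FPKM in untreated cells, with differences of -0.52 ± 0.06 and -0.45 ± 0.05. CCNA2, the cyclin of S phase and G2, measured 30.1, 29.9 and 32.7 FPKM in silenced cells, against 46.6, 47.95 and 50.1 FPKM in untreated cells (-0.63 ± 0.05, adjusted p = 8.8e-05). PCNA, the replication clamp and a p53 target, went the other way at 310.4, 331 and 352 FPKM in silenced cells, against 187, 199.9 and 197 FPKM in untreated cells (0.76 ± 0.06, adjusted p = 7.0e-05). E2F7, a repressor of the same genes and also a p53 target, measured 17.4, 17.3 and 18.1 FPKM in silenced cells, against 9.33, 10.5 and 10.1 FPKM in untreated cells (0.77 ± 0.06, adjusted p = 6.0e-05). CCNE1, the cyclin of entry into S phase, rose by 0.45 ± 0.07, and FEN1 and GINS4 by 0.27 and 0.30. POLA2, RRM1, TK1, E2F1 and LIG1 also passed as higher, by 0.24, 0.19, 0.29, 0.17 and 0.20, but each lost its call under 4 or more other settings, and TK1 and E2F1 were on the other side of 0 after GC correction (-0.026 and -0.132).

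Of 24 checkpoint genes 13 fell and 1 rose, with a median of -0.21. H2AFX, the histone variant that is phosphorylated at breaks, measured 79.5, 80.9 and 83.6 FPKM in silenced cells, against 167, 152 and 138 FPKM in untreated cells, and MDC1, which binds it, measured 7.93, 8.11 and 8.19 FPKM in silenced cells, against 15.4, 14.9 and 14.1 FPKM in untreated cells. Silenced libraries were lower throughout (-0.89 ± 0.07, adjusted p = 7.0e-05; -0.80 ± 0.05, adjusted p = 4.0e-05). CHEK1, the kinase that stops the cycle after replication stress, fell, at -0.59, its activator CLSPN at -0.62, and NBN of the break sensor complex at -0.62. ATM did not pass at 3.59, 3.73 and 3.86 FPKM in silenced cells and 3.82, 4.30 and 4.25 FPKM in untreated cells. CHEK2 was the member that passed as higher (0.19 ± 0.07), a call that 8 other settings ended. In homologous recombination and the Fanconi pathway 11 of 34 members fell and 3 rose, but after GC correction 6 fell and 6 rose, and 4 and 5 with the replicate block added. Without silenced replicate 1 the counts were 7 and 0, with no filter on low genes 7 and 1, and when scaled to totals 7 and 6. RBBP8, which starts resection of breaks, measured 10.9, 10.8 and 11.5 FPKM in silenced cells, against 19.4, 22.2 and 24.05 FPKM in untreated cells, with a difference of -0.92 ± 0.08 (adjusted p = 9.5e-05). FANCA, of the Fanconi core complex, fell, at -0.27. BRCA1, BRCA2, BARD1 and BLM fell, at -0.32, -0.38, -0.35 and -0.29, and all 4 calls were lost after GC correction. XRCC3, RAD54L and FANCE, which passed as higher (0.26, 0.29 and 0.29), lost their calls under 3 or more other settings.

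Of 18 tested output and feedback genes of the RAS to ERK signal, 11 fell and 3 rose, with a median of -0.35. DUSP6, the phosphatase that switches off ERK, measured 21.99, 21.2 and 20.3 FPKM in silenced cells, against 48.5, 49.97 and 51.7 FPKM in untreated cells. SPRY4, a Sprouty inhibitor of the pathway, measured 11.5, 10.8 and 10.6 FPKM in silenced cells, against 22.4, 21.8 and 20.6 FPKM in untreated cells. The ETS factors ETV1 and ETV5, targets of ERK, measured 3.32, 3.33 and 2.99 and 10.2, 10.5 and 10.9 FPKM in silenced cells, against 8.499, 8.95 and 9.43 and 17.98, 17.4 and 18.4 FPKM in untreated cells. No silenced library reached an untreated one in any of these, and the differences were -1.202 ± 0.05 (adjusted p = 6.3e-06), -0.92 ± 0.05 (adjusted p = 2.4e-05), -1.24 ± 0.07 (adjusted p = 1.9e-05) and -0.72 ± 0.05 (adjusted p = 4.5e-05). PHLDA1 measured 28.5, 27.5 and 26.2 FPKM in silenced cells, against 41.7, 43.1 and 42.4 FPKM in untreated cells, a difference of -0.61 ± 0.05, and DUSP4 measured 25.3, 23.2 and 21.8 FPKM in silenced cells, against 31.5, 29.5 and 29.2 FPKM in untreated cells, a difference of -0.34 ± 0.06.

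The same genes were set beside the cells that had CPT-11 without the hairpin. DUSP6 measured 49.8, 50.3 and 40.1 FPKM with CPT-11 alone and 45.9, 47.3 and 48.3 FPKM with lovastatin and CPT-11, so that silenced cells were lower, at -1.10 ± 0.08 (adjusted p = 2.4e-05) and -1.12 ± 0.08 (adjusted p = 9.9e-06). SPRY4 (-0.57 and -0.72), ETV1 (-0.81 and -0.70), ETV5 (-0.59 and -0.59), PHLDA1 (-0.49 and -0.60) and DUSP4 (-0.50 and -0.64) were also lower than in both groups, in that order. ETV4 did not pass against untreated cells at 15.3, 14.6 and 12.7 FPKM in silenced cells and 16.4, 15.8 and 13.9 FPKM in untreated cells. CCND1, cyclin D1, did not pass either (-0.12 ± 0.05), although it was lower than in both drug groups (-0.41 and -0.40). DUSP5 and DUSP7 rose, by 0.60 ± 0.07 and 0.59 ± 0.08, and SPRY1 by 0.51 ± 0.10, which did not pass when no filter on low genes was set. SPRY2 and IER3 fell, at -0.35 and -0.24, calls that 4 or more other settings ended.

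Upstream of ERK, 10 of 24 tested partners of SHP2, PTPN11 among them, fell and 4 rose, but 7 fell and 7 rose when libraries were scaled to their totals. NRAS, a RAS protein, measured 17.3, 19.2 and 20.7 FPKM in silenced cells, against 32.7, 37.4 and 35.7 FPKM in untreated cells. It was lower in all silenced libraries, with a difference of -0.86 ± 0.07 (adjusted p = 1.1e-04). Against CPT-11 alone NRAS was lower, at -0.64 ± 0.10, and against lovastatin and CPT-11 at -0.49 ± 0.10. CBL, the ligase that removes receptors, measured 9.62, 9.02 and 8.85 FPKM in silenced cells, against 12.8, 13.6 and 14.04 FPKM in untreated cells (-0.51 ± 0.06). SHC1, an adaptor that links receptors to GRB2, rose at 77.1, 77.97 and 74.9 FPKM in silenced cells, against 48.4, 45.2 and 38.3 FPKM in untreated cells (0.79 ± 0.08, adjusted p = 2.0e-04), and IRS1 rose by 0.31 ± 0.06. MAPK3, MAP2K1 and MAP2K2 differed by -0.14, 0.11 and 0.26 and did not pass. IRS2 and HRAS passed as higher (0.25 and 0.29), and GRB2 and SOS2 as lower (-0.17 and -0.26), each with its call lost under 7 or more other settings, and HRAS was at -0.079 after GC correction.

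Among ERBB receptors and their ligands, 3 of 11 rose and 2 fell, with 2 and 2 without untreated replicate 2, silenced replicate 1 or silenced replicate 2. The shares over all tested genes were 22.5% higher and 23% lower. EREG, the ligand epiregulin, measured 62.9, 65.1 and 68.1 FPKM in silenced cells, against 123.1, 131 and 138 FPKM in untreated cells, and EGFR measured 11.8, 12.2 and 10.1 FPKM in silenced cells, against 16.1, 17.5 and 18.01 FPKM in untreated cells. They fell, at -0.99 ± 0.06 (adjusted p = 1.9e-05) and -0.56 ± 0.08 (adjusted p = 7.8e-04). The ligands HBEGF and TGFA rose, by 0.53 ± 0.08 and 0.29 ± 0.05, yet were lower than with CPT-11 alone (-0.41 and -0.43). ERBB2 and ERBB3 did not pass (0.02 and 0.17).

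Immediate early genes moved in both directions. Of 22 tested, 11 rose and 5 fell, with a median of 0.25, though the count narrowed to 8 higher and 7 lower after GC correction. ATF3, a stress-induced factor and p53 target, measured 22.6, 22.9 and 23.98 FPKM in silenced cells, against 8.36, 7.57 and 7.93 FPKM in untreated cells, and JUNB measured 74.3, 69.4 and 66.3 FPKM in silenced cells, against 41.4, 37.5 and 33.9 FPKM in untreated cells. They rose by 1.43 ± 0.05 (adjusted p = 4.5e-06) and 0.88 ± 0.08 (adjusted p = 1.1e-04). MYC measured 120.4, 121 and 121 FPKM in silenced cells, against 104, 98.3 and 92.1 FPKM in untreated cells, a small rise of 0.29 ± 0.05 (adjusted p = 0.0028). With CPT-11 alone MYC was at 74.6, 75.3 and 80.1 FPKM and with lovastatin and CPT-11 at 81, 75.6 and 78.4 FPKM, so silenced cells stood above both (0.65 ± 0.06, adjusted p = 6.7e-05; 0.62 ± 0.06, adjusted p = 6.1e-05). FOSL2 and NR4A1 rose by 0.84 ± 0.07 and 0.70 ± 0.09. KLF2 measured 28.4, 26.4 and 24.6 FPKM in silenced cells, against 54.3, 47.5 and 38.1 FPKM in untreated cells, and fell, at -0.78, as did KLF6 (-0.42 ± 0.05), KLF10 (-0.41 ± 0.06) and ZFP36L1 (-0.28 ± 0.06). EGR1 fell too, at -0.56 (adjusted p = 0.0096 in limma), a call that was lost when no filter on low genes was set. FOS, JUN and FOSL1 did not pass (-0.12, 0.05 and 0.10).

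**Figure D3:**
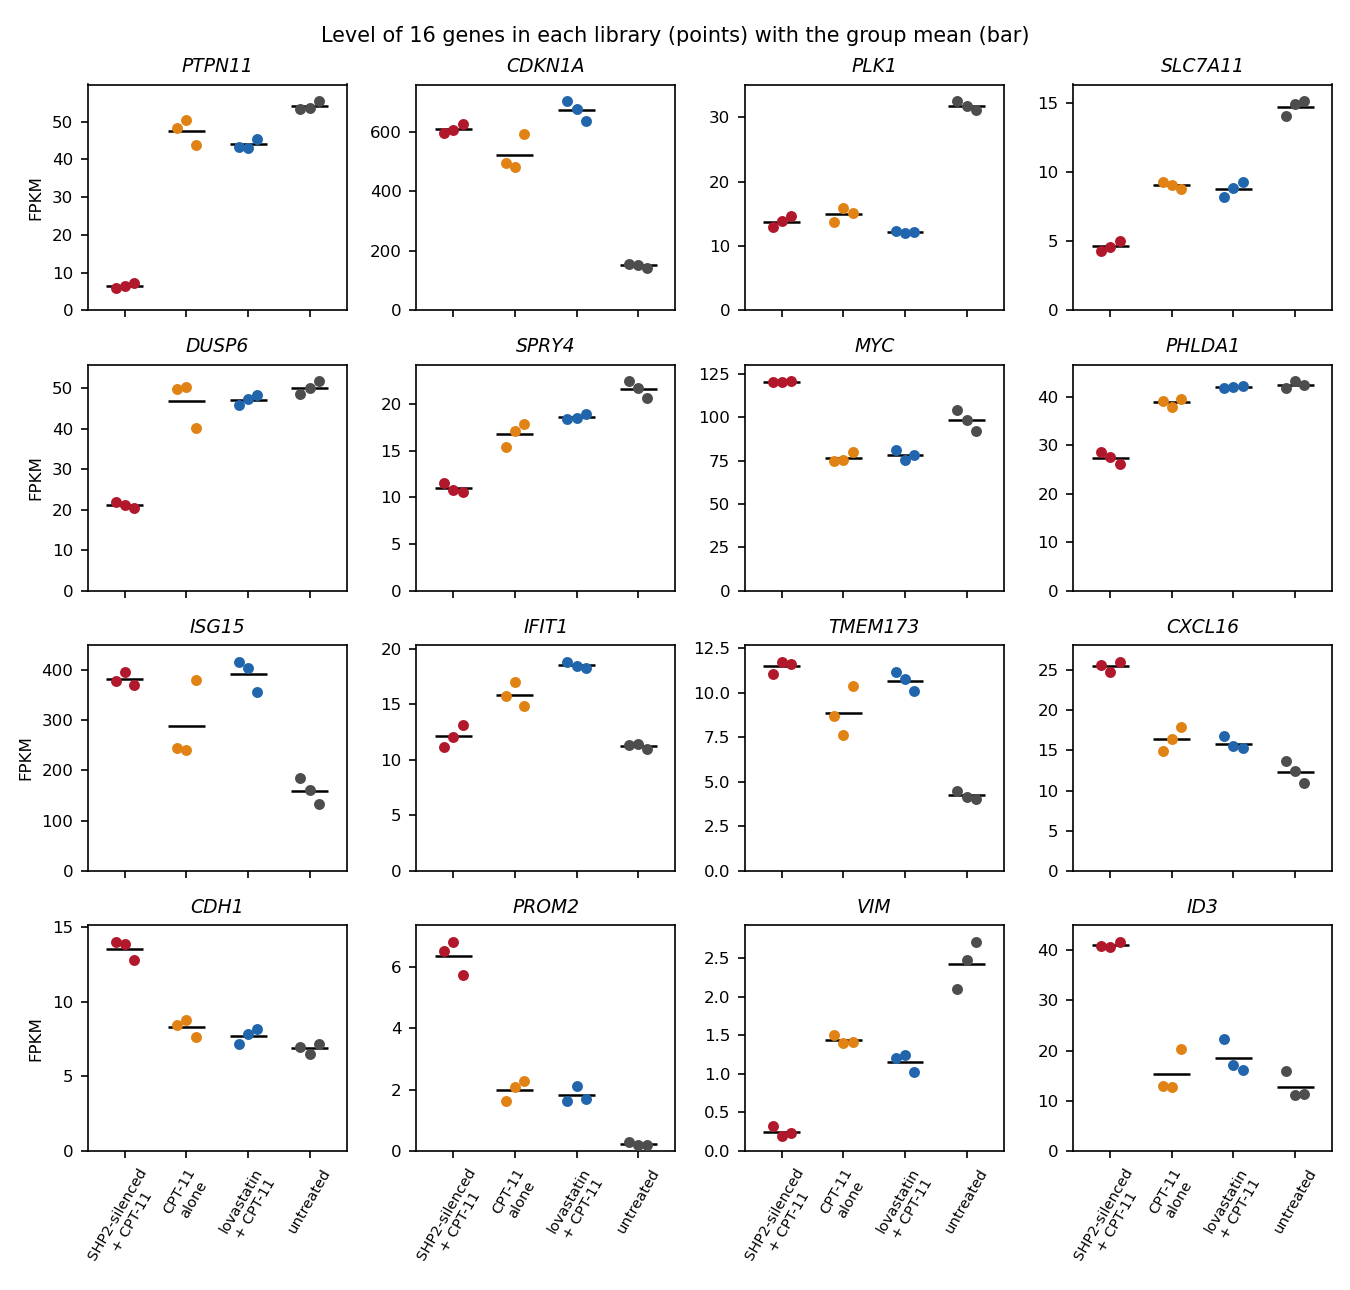
Level in FPKM (y axis, from 0) of 16 genes in each library of the 4 groups (points), with the group mean (bar). PTPN11, DUSP6, SPRY4, PHLDA1, SLC7A11 and VIM are lowest in silenced cells with CPT-11, MYC, CXCL16, CDH1, PROM2 and ID3 are highest there, and IFIT1 lies near its untreated level while both drug groups without the hairpin lie above it.

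The STING gene rose, and its partners moved in both directions. TMEM173, which encodes STING (ENSG00000184584, GRCh38 chromosome 5, 139475534 to 139482935, minus strand), measured 11.1, 11.7 and 11.6 FPKM in silenced cells, against 4.50, 4.16 and 4.05 FPKM in untreated cells. All silenced libraries were above all untreated ones (1.25 ± 0.06, adjusted p = 1.3e-05). It measured 8.69, 7.60 and 10.4 FPKM with CPT-11 alone and 11.2, 10.8 and 10.1 FPKM with lovastatin and CPT-11. Silenced cells were higher than the first of these (0.34 ± 0.09, adjusted p = 0.023) and not past the test against the second (0.10 ± 0.09, adjusted p = 0.6). The call against CPT-11 alone was lost in the fit of 6 libraries (adjusted p = 0.09 in limma) and without any 1 library other than CPT-11 replicate 3. CGAS was too low to be tested, with means of 0.0302 FPKM in silenced and 0.0275 FPKM in untreated cells, and TREX1 and ZBP1 were listed at 0. Of 18 tested members of the sensing pathway 7 rose and 3 fell, but 4 rose and 5 fell after GC correction, and 4 rose and 0 fell without silenced replicate 1. NLRX1, a mitochondrial regulator of innate signalling, rose by 0.77 ± 0.07 (adjusted p = 1.4e-04), the STING ligase TRIM32 by 0.40 ± 0.06 and LRRC8A, a subunit of the channel that carries cyclic dinucleotides, by 0.43 ± 0.07. TBK1, the kinase below STING, measured 10.5, 11.9 and 12.01 FPKM in silenced cells, against 12.9, 16.8 and 16.05 FPKM in untreated cells, a difference of -0.37 ± 0.10 that was lost under 5 other settings. IRF3 did not pass at 14.8, 14.96 and 14.2 FPKM in silenced cells and 14.6, 13.8 and 14.02 FPKM in untreated cells. ENPP1 and BANF1 fell, at -0.28 and -0.14, calls that 11 or more other settings ended.

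Interferon-stimulated genes rose in part. Of 39 tested, 18 rose and 2 fell, with a median of 0.28, and 23 rose and 2 fell after GC correction. The drug groups without the hairpin also rose over untreated cells, with medians of 0.374 (CPT-11 group) and 0.369 (lovastatin group). Against CPT-11 alone, 5 members were higher and 8 lower in silenced cells, where 11.2% of all genes were higher and 13.2% lower. ISG15, the ubiquitin-like modifier whose promoter is shown above, measured 379, 395 and 371 FPKM in silenced cells, against 185, 160.5 and 132 FPKM in untreated cells. IFI6, a mitochondrial antiviral protein, measured 59.6, 56.5 and 46.7 FPKM in silenced cells, against 21.1, 18.2 and 17.9 FPKM in untreated cells. Neither overlapped, and they rose by 1.27 ± 0.11 (adjusted p = 1.0e-04) and 1.46 ± 0.10 (adjusted p = 4.0e-05). BST2, or tetherin, measured 2.92, 3.28 and 3.10 FPKM in silenced cells, against 1.36, 1.01 and 1.45 FPKM in untreated cells (0.85 ± 0.10, adjusted p = 3.3e-04). The oligoadenylate synthetase OAS3 rose by 0.52 ± 0.04 (adjusted p = 1.1e-04), OASL by 0.56 ± 0.06, and UBE2L6, the enzyme that conjugates ISG15, by 0.67 ± 0.09.

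The IFIT genes, which encode proteins that bind viral RNA, did not pass the test in any of 3 cases. IFIT1 measured 11.2, 12.03 and 13.2 FPKM in silenced cells, against 11.4, 11.5 and 10.9 FPKM in untreated cells, IFIT2 measured 9.53, 9.91 and 10.98 FPKM in silenced cells and 9.32, 10.6 and 11.5 FPKM in untreated cells, and IFIT3 measured 7.99, 7.99 and 8.65 FPKM in silenced cells and 7.30, 7.60 and 8.54 FPKM in untreated cells. The libraries of both groups overlapped in all of them, and the differences were 0.10 ± 0.07 (adjusted p = 0.27), -0.04 ± 0.08 (adjusted p = 0.73) and 0.07 ± 0.07 (adjusted p = 0.49). IFIT1 passed as higher, at 0.24, after GC correction. Cells with CPT-11 alone held 15.8, 17.03 and 14.8 FPKM of IFIT1 and those with lovastatin and CPT-11 18.8, 18.4 and 18.3 FPKM. Against these groups silenced cells were lower in IFIT1 (-0.36 ± 0.07 and -0.57 ± 0.07), in IFIT2 (-0.53 ± 0.09 and -0.63 ± 0.09) and in IFIT3 (-0.60 ± 0.11 and -0.68 ± 0.11). STAT2, a factor that carries the interferon signal, rose by 0.39 ± 0.05. The RNA sensors EIF2AK2 and ADAR were the members that fell, at -0.28 and -0.17, and each call was lost under 4 or more other settings.

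Cytokine genes were mostly low in these cells, and 19 of 31 could be tested. Of these 8 rose and 1 fell, or 5 and 2 with GC correction and the replicate block. IL32 measured 3.32, 3.80 and 3.45 FPKM in silenced cells, against 0.732, 0.590 and 0.633 FPKM in untreated cells, and CXCL16, a membrane-bound chemokine, measured 25.7, 24.8 and 26.1 FPKM in silenced cells, against 13.6, 12.5 and 10.9 FPKM in untreated cells. They rose by 1.45 ± 0.08 (adjusted p = 1.7e-05) and 0.996 ± 0.08 (adjusted p = 6.6e-05), and were higher than with CPT-11 alone too (1.22 ± 0.11 and 0.61 ± 0.08) and than with lovastatin and CPT-11 (1.27 ± 0.11 and 0.65 ± 0.08). IL18 rose by 0.61 ± 0.09. LIF, an ERK-responsive cytokine, was the member that fell, at 19.5, 19.7 and 19.9 FPKM in silenced cells, against 28.7, 23.9 and 23.6 FPKM in untreated cells (-0.35 ± 0.07). CXCL8, or interleukin 8, did not pass at 2.07, 2.19 and 1.88 FPKM in silenced cells and 2.40, 3.61 and 2.47 FPKM in untreated cells (adjusted p = 0.072), but was below cells with CPT-11 alone, at -0.98 ± 0.13 (adjusted p = 9.3e-04) and below those with lovastatin and CPT-11 at -1.28 ± 0.13 (adjusted p = 1.3e-04). IFNB1 was too low to be tested.

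Among NF-kB genes 8 of 16 rose and 1 fell, with 6 and 4 after GC correction, 5 and 4 with the replicate block added, 5 and 2 without untreated replicate 3, and 5 and 1 with no filter on low genes. NFKB2 measured 50.1, 51.1 and 50.8 FPKM in silenced cells, against 31.6, 29.02 and 25.6 FPKM in untreated cells and RELB measured 6.46, 6.78 and 6.34 FPKM in silenced cells, against 3.98, 3.28 and 3.64 FPKM in untreated cells, both subunits of the non-canonical arm, with rises of 0.80 ± 0.07 (adjusted p = 1.1e-04) and 0.70 ± 0.08 (adjusted p = 3.0e-04). NFKB1, the subunit p50 of the canonical arm, fell, at -0.37, and RELA did not pass (-0.01). TNFAIP2 and the adhesion molecule ICAM1 rose by 0.76 ± 0.06 and 0.88 ± 0.13. BIRC3 did not pass (-0.25 ± 0.11) but was lower than in both drug groups, at -0.77 and -0.89.

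Antigen presentation genes rose in 7 of 18 cases and fell in 2, with 7 and 5 after GC correction, and 11 and 2 when libraries were scaled to their totals. TAP1, a subunit of the peptide transporter, measured 20.6, 21.2 and 22.6 FPKM in silenced cells, against 9.86, 10.1 and 8.98 FPKM in untreated cells (1.079 ± 0.06, adjusted p = 1.9e-05), whereas its partner TAP2 did not pass (-0.03). HLA-C and HLA-B rose by 0.53 ± 0.06 and 0.50 ± 0.06. Reads of these similar genes may be split between them. The chaperones CANX and PDIA3 fell, at -0.61 and -0.50. Of 17 ligands that immune cells recognise, 5 rose and 1 fell, but 4 rose and 5 fell after GC correction, and 3 rose and 1 fell among the 14 with a mean of at least 1 FPKM. Over all tested genes 22.5% rose and 23% fell. CEACAM1 measured 4.46, 4.39 and 4.53 FPKM in silenced cells, against 0.488, 0.537 and 0.736 FPKM in untreated cells, and TNFSF9, the ligand of 4-1BB, measured 37.5, 37.5 and 35.9 FPKM in silenced cells, against 17.8, 14.02 and 12.98 FPKM in untreated cells. Neither overlapped (1.79 ± 0.08, adjusted p = 1.0e-05; 1.26 ± 0.10, adjusted p = 7.4e-05). ULBP2, a ligand of the natural killer receptor NKG2D, rose by 0.72 ± 0.08, and its relative ULBP1 fell, at -0.70. CD274, which encodes PD-L1, did not pass at 1.07, 1.10 and 0.798 FPKM in silenced cells and 1.11, 1.18 and 1.24 FPKM in untreated cells (adjusted p = 0.22), and was lower than in both drug groups, at -0.46 ± 0.10 and -0.58 ± 0.10.

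Of 27 genes of cell contacts 13 rose and 5 fell, with a median of 0.22. CDH1, E-cadherin, measured 13.98, 13.9 and 12.8 FPKM in silenced cells, against 6.99, 6.53 and 7.18 FPKM in untreated cells, and CLDN7, a claudin of tight junctions, measured 46.3, 44.7 and 42.9 FPKM in silenced cells, against 21.04, 20.5 and 17.7 FPKM in untreated cells. They rose by 0.88 ± 0.06 (adjusted p = 4.6e-05) and 1.14 ± 0.07 (adjusted p = 2.5e-05). With CPT-11 alone CDH1 was at 8.42, 8.79 and 7.61 FPKM and CLDN7 at 17.7, 16.6 and 26.99 FPKM, and silenced cells exceeded that group by 0.65 ± 0.07 and 1.12 ± 0.15 and the lovastatin group by 0.74 ± 0.07 and 0.67 ± 0.15. JUP, or plakoglobin, measured 106, 106 and 99.2 FPKM in silenced cells, against 68.5, 64.2 and 59.6 FPKM in untreated cells (0.69 ± 0.06), and NECTIN1 rose by 0.87 ± 0.05. TJP1, the scaffold ZO-1, measured 11.9, 12.1 and 11.5 FPKM in silenced cells, against 16.9, 18.6 and 19.2 FPKM in untreated cells and fell, at -0.58. The desmosomal cadherins DSC2 and DSG2 fell, at -0.45 and -0.43. CLDN2 and CLDN12 also passed as lower (-0.31 and -0.41), with calls lost under at least 1 other setting.

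The mesenchymal switch list held both epithelial regulators and mesenchymal genes, and 6 of 16 rose and 4 fell, or 7 and 8 after GC correction. VIM, the intermediate filament vimentin of mesenchymal cells, measured 0.329, 0.195 and 0.228 FPKM in silenced cells, against 2.10, 2.47 and 2.71 FPKM in untreated cells, and ZEB1, a repressor of E-cadherin, measured 0.446, 0.589 and 0.543 FPKM in silenced cells, against 1.95, 2.33 and 2.11 FPKM in untreated cells. Levels were low in both groups, and both genes fell, at -1.45 ± 0.09 (adjusted p = 2.6e-05) and -1.03 ± 0.08 (adjusted p = 6.5e-05). They were also below CPT-11 alone, at -0.96 ± 0.08 and -0.84 ± 0.09, and below lovastatin and CPT-11, at -0.79 ± 0.08 and -0.80 ± 0.09. OVOL1 and GRHL2, which keep cells epithelial, measured 5.08, 4.68 and 4.32 and 4.67, 4.78 and 4.78 FPKM in silenced cells, against 1.18, 1.39 and 1.197 and 2.42, 2.51 and 2.34 FPKM in untreated cells. These regulators rose by 1.33 ± 0.08 (adjusted p = 3.0e-05) and 0.75 ± 0.07 (adjusted p = 1.3e-04), and also exceeded CPT-11 alone, by 0.87 and 0.77. The splicing regulators ESRP1 and ESRP2 rose by 0.32 and 0.60. MMP14, a membrane metalloproteinase, rose by 1.13 ± 0.06, SNAI2 by 0.45 ± 0.09, while COL1A1 and ACTA2, which mark fibroblasts and smooth muscle, were higher by 0.54 ± 0.09 and 0.88 ± 0.08, and SNAI1 did not pass (0.01). Colon epithelial markers rose in 7 of 8 tested cases, KRT19 by 0.54 ± 0.07 and EPCAM by 0.22 ± 0.05, with the keratin KRT18 not past the test (-0.05). Among intestinal identity genes 7 of 14 rose and 2 fell, or 7 and 5 after GC correction, with a median of 0.26, or 0.121 corrected. ELF3, an ETS factor of epithelia, measured 6.34, 6.41 and 5.995 FPKM in silenced cells, against 3.38, 3.48 and 2.79 FPKM in untreated cells (0.78 ± 0.08, adjusted p = 2.7e-04). SOX9, a factor of crypt progenitors, measured 51.3, 49.4 and 47.3 FPKM in silenced cells, against 69.6, 64.9 and 61.2 FPKM in untreated cells (-0.39 ± 0.06, adjusted p = 0.0011).

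Feedback genes of BMP and TGF-beta signalling rose in 9 of 17 tested cases and fell in 2, with a median of 0.27. ID3, a BMP target that blocks basic helix-loop-helix factors, measured 40.9, 40.7 and 41.6 FPKM in silenced cells, 12.9, 12.7 and 20.3 FPKM with CPT-11 alone, 22.3, 17.1 and 16.1 FPKM with lovastatin and CPT-11, and 16.03, 11.1 and 11.3 FPKM in untreated cells. Silenced cells were above all 3 other groups, by 1.62 ± 0.12 (adjusted p = 6.0e-05) against untreated cells, 1.40 ± 0.18 (adjusted p = 9.0e-04) against CPT-11 alone and 1.12 ± 0.18 (adjusted p = 0.0032) against lovastatin and CPT-11. SMAD7, the inhibitor of both pathways, measured 2.17, 2.31 and 2.47 FPKM in silenced cells, against 0.865, 0.451 and 0.713 FPKM in untreated cells (0.99 ± 0.10, adjusted p = 2.4e-04). BAMBI, a decoy receptor, rose by 0.85 ± 0.08, and the ligand BMP4 by 0.35 ± 0.05. The receptor gene TGFBR2 fell, at -0.58, and SKIL at -0.38, and the call for SKIL was lost after GC correction. ID1 did not pass at 111, 108 and 99.5 FPKM in silenced cells and 101, 104 and 92.9 FPKM in untreated cells.

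Wnt target and stem cell genes rose in 6 of 17 cases and fell in 3, or 6 and 5 after GC correction and 5 and 5 with the replicate block added, and the median was 0.08, or 0.007 corrected. Over all tested genes 22.5% rose and 23% fell. DKK1, a secreted Wnt inhibitor, measured 231, 235 and 219 FPKM in silenced cells, against 122, 120.1 and 123 FPKM in untreated cells (0.90 ± 0.05, adjusted p = 1.3e-05), and NKD2 rose by 1.10 ± 0.09. RNF43, the ligase that removes Wnt receptors, measured 3.43, 3.09 and 3.37 FPKM in silenced cells, against 7.07, 5.94 and 6.23 FPKM in untreated cells (-0.79 ± 0.08, adjusted p = 2.2e-04). AXIN2, a direct Wnt target, did not pass at 5.10, 5.83 and 5.83 FPKM in silenced cells and 6.95, 6.04 and 6.61 FPKM in untreated cells. DKK1 was higher and RNF43 lower than with CPT-11 alone too (0.53 and -0.58). Of 19 genes of the YAP pathway 6 rose and 7 fell, with 6 and 6 under 6 other settings, scaling to totals among them. TEAD1, the DNA-binding partner of YAP, measured 13.3, 13.5 and 12.5 FPKM in silenced cells, against 28.4, 30.6 and 32.3 FPKM in untreated cells, and WWTR1, which encodes TAZ, measured 7.68, 7.62 and 7.69 FPKM in silenced cells, against 13.7, 14.9 and 14.8 FPKM in untreated cells. Their differences were -1.15 ± 0.06 (adjusted p = 1.4e-05) and -0.84 ± 0.05 (adjusted p = 3.4e-05). NT5E, the ectonucleotidase CD73, measured 14.2, 14.96 and 13.7 FPKM in silenced cells, against 23.9, 26.3 and 27.1 FPKM in untreated cells, lower also than with CPT-11 alone (-0.81 ± 0.06 and -1.004 ± 0.08). The targets CYR61 and AJUBA rose by 0.74 ± 0.07 and 0.81 ± 0.08, and CTGF did not pass (-0.21 ± 0.09).

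Genes of the integrated stress and unfolded protein responses fell in 16 of 27 cases and rose in 5, with a median of -0.26. ATF4, the factor that directs the stress response, measured 91.95, 95.02 and 101 FPKM in silenced cells, against 161, 156 and 149 FPKM in untreated cells (-0.69 ± 0.05, adjusted p = 6.6e-05). SLC7A11, described above, and the amino acid transporter SLC7A5 (-0.56 ± 0.06) fell. The serine synthesis enzymes PHGDH and PSAT1 fell, at -0.52 and -0.49. HSPA5 and HSP90B1, chaperones of the endoplasmic reticulum, measured 253, 268 and 271 and 221, 228 and 229 FPKM in silenced cells, against 346, 368 and 373 and 302, 353 and 363 FPKM in untreated cells, with differences of -0.46 ± 0.05 and -0.58 ± 0.07. DDIT4, an inhibitor of mTOR, measured 67.3, 57.6 and 46.9 FPKM in silenced cells, against 26.6, 20.3 and 17.3 FPKM in untreated cells (1.38 ± 0.17, adjusted p = 4.5e-04), and SESN2, like ATF3 also a p53 target, rose by 0.81 ± 0.08. PPP1R15A and SDF2L1 passed as higher (0.24 and 0.32), and both calls were lost after GC correction.

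Iron, glutathione and NRF2 genes moved in both directions, with 8 higher and 9 lower of 23, or 9 and 8 when libraries were scaled to their totals. NFE2L2, which encodes NRF2, measured 11.99, 12.9 and 13.1 FPKM in silenced cells, against 19.3, 23.03 and 24.3 FPKM in untreated cells, and its target NQO1 measured 105, 108 and 113 FPKM in silenced cells, against 165, 164 and 163 FPKM in untreated cells. Both fell, at -0.76 ± 0.08 (adjusted p = 3.2e-04) and -0.59 ± 0.05 (adjusted p = 6.4e-05). GCLM, of glutathione synthesis, fell, at -0.48. ALOX5, the lipoxygenase of leukotriene synthesis, measured 6.83, 5.75 and 6.09 FPKM in silenced cells, against 1.39, 1.25 and 0.926 FPKM in untreated cells (1.73 ± 0.10, adjusted p = 2.5e-05), the peroxidase GPX1 rose by 0.99 ± 0.09, and HMOX1 by 0.68 ± 0.08. SRXN1 rose by 0.90 and NCOA4 by 0.27, and both calls held under every other setting. KEAP1 and AIFM2 passed as higher (0.26 and 0.24), with calls lost under 7 or more other settings. FTH1, ferritin heavy chain, was called higher at 423, 411 and 441 FPKM in silenced cells, against 413, 235 and 191 FPKM in untreated cells, but the groups overlapped, that call was lost under 11 other settings, and the difference of 0.68 ± 0.24 was 0.445 without untreated replicate 3.

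Among glucose genes 9 of 25 rose and 7 fell, but 8 rose and 9 fell after GC correction, 6 rose and 6 fell without untreated replicate 2 or silenced replicate 2, and 11 rose and 5 fell when libraries were scaled to their totals. ARRDC4, an arrestin that removes glucose transporters, measured 16.6, 17.1 and 15.2 FPKM in silenced cells, against 4.38, 5.65 and 6.14 FPKM in untreated cells, and was also above CPT-11 alone (1.45 ± 0.11, adjusted p = 5.5e-05; 1.13 ± 0.10, adjusted p = 6.7e-05). PFKL, PFKFB3 and HK1, which act early in glycolysis, rose by 0.60, 0.56 and 0.37. GAPDH, LDHA, PKM and ENO1, which act later, fell, at -0.38, -0.39, -0.27 and -0.25.

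Sterol synthesis gave 6 higher and 5 lower of 22 tested genes, with no direction that held: 3 were higher and 6 lower after GC correction, 3 and 5 without silenced replicate 1, 3 and 4 with no filter on low genes, 4 and 5 in the fit of 12 libraries, and 9 and 2 when libraries were scaled to their totals. Since a label of the silenced samples names lovastatin, a gene that answers to statins is given in full. HMGCS1, an enzyme early in the pathway, measured 24.9, 25.5 and 25.8 FPKM in silenced cells, 105, 101 and 103 FPKM with lovastatin and CPT-11, and 28.1, 29.9 and 30.96 FPKM in untreated cells. The silenced libraries lay near the untreated ones, at -0.21 ± 0.05 (adjusted p = 0.0093), a call that was lost after GC correction, and far below the lovastatin group (-1.97 ± 0.07, adjusted p = 5.1e-08). LBR, a sterol reductase of the nuclear envelope, fell, at -0.60, and CYP51A1 and TM7SF2 rose by 0.82 ± 0.10 and 0.90 ± 0.07. In SREBP regulation 4 of 19 rose and 3 fell, or 7 and 5 after GC correction, 3 and 3 among the 16 with a mean of at least 1 FPKM, and 4 and 4 without untreated replicate 1. The shares over all tested genes were 22.5% higher and 23% lower. ABCA1, the cholesterol exporter, measured 1.21, 1.38 and 1.23 FPKM in silenced cells, against 0.457, 0.233 and 0.328 FPKM in untreated cells (0.76 ± 0.08), and INSIG1 fell, at -0.36. In fatty acid synthesis 9 of 21 fell and 5 rose, or 7 and 6 when scaled to library totals. ACSL3, which activates fatty acids, measured 13.3, 14.5 and 13.4 FPKM in silenced cells, against 25.9, 27.8 and 30.96 FPKM in untreated cells (-0.98 ± 0.07, adjusted p = 5.3e-05), and the desaturase SCD measured 138, 134 and 133 FPKM in silenced cells, against 208, 203 and 209 FPKM in untreated cells (-0.62 ± 0.04). FASN, ELOVL1, FADS1 and ACSL1 passed as higher by 0.25, 0.17, 0.23 and 0.26, and each call was lost under 2 or more other settings.

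Among genes that handle irinotecan, 6 of 15 fell and 5 rose, where 23% of all genes fell and 22.5% rose. TOP1, the target of the drug, measured 70.9, 69.7 and 72.04 FPKM in silenced cells, against 101, 105 and 112 FPKM in untreated cells, a difference of -0.57 ± 0.05 (adjusted p = 1.1e-04). CES2, the esterase that activates it, measured 14.9, 16.3 and 16.5 FPKM in silenced cells, against 8.18, 8.48 and 7.98 FPKM in untreated cells, a rise of 0.88 ± 0.06 (adjusted p = 3.9e-05). ABCC2, an exporter, measured 27.99, 28.7 and 29 FPKM in silenced cells, against 20.05, 21.6 and 23.5 FPKM in untreated cells, higher also than with CPT-11 alone (0.38 ± 0.06 and 0.44 ± 0.07). TOP2A, TOP2B and TDP2 fell, at -0.57, -0.36 and -0.33, and PARP1, which responds to trapped topoisomerase, at -0.35. XRCC1 and ABCG2 passed as higher (0.26 and 0.33), with calls lost under 5 or more other settings. UGT1A1 and SLFN11 were too low to be tested. Of 23 replication-dependent histone genes 9 could be tested and 3 fell (5 with GC correction and the replicate block, and 1 of 5 with a mean of at least 1 FPKM), HIST2H2AC at -1.06 ± 0.14. These transcripts mostly lack a poly(A) tail, and how RNA was selected is not given in the sources used here.

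**Figure D4:**
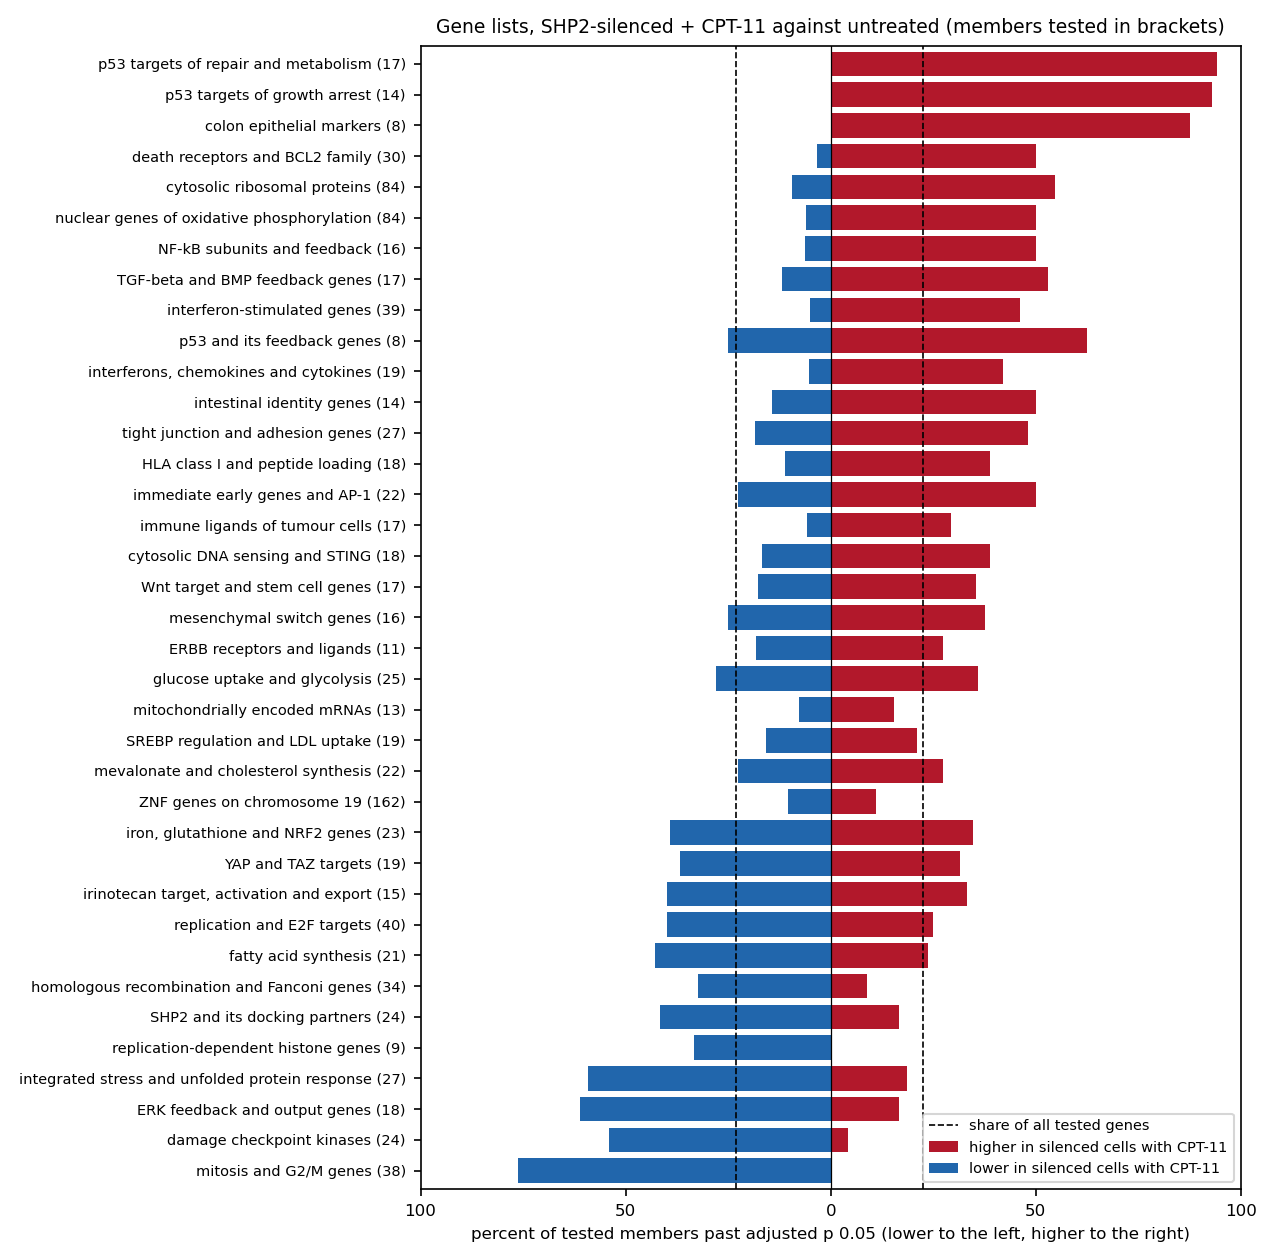
Share of the tested members of each gene list (rows, number tested in brackets) that was higher (red, to the right) or lower (blue, to the left) in silenced cells with CPT-11 than in untreated cells at an adjusted p under 0.05. Dashed lines mark the shares over all 17025 genes, 22.5% higher and 23% lower. The p53 targets reach furthest to the right, with 16 of 17 and 13 of 14 members higher, and mitotic genes furthest to the left, with 29 of 38 lower.

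Large housekeeping families shifted by small amounts. Of 84 genes of cytosolic ribosomal proteins 46 rose and 8 fell, with a median of 0.19. The counts were 30 and 1 without silenced replicate 2, 28 and 3 in the fit of 12 libraries, and 28 and 2 with no filter on low genes. Of 84 nuclear genes of oxidative phosphorylation 42 rose and 5 fell, with a median of 0.18. Many ribosomal protein genes may share reads with near-identical pseudogenes, which was not tested. Zinc finger genes of chromosome 19 moved little, with 18 of 162 higher and 17 lower, although 44 were higher and 13 lower after GC correction, 36 and 11 with the replicate block added, and 14 and 25 after quantile normalisation, and voom or leaving out untreated replicate 1 or 2 also gave more lower than higher. Of 13 mitochondrially encoded mRNAs 2 rose and 1 fell, but 4 and 1 when scaled to totals, 0 and 1 with no filter on low genes, 5 and 3 among genes of at least 1 FPKM, 2 and 3 after quantile normalisation, and 6 and 5 with voom. MT-ND3 rose by 0.68 ± 0.11, a call lost when no filter on low genes was set, and MT-ATP8, which overlaps MT-ATP6, fell, at -0.98 ± 0.13.

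Differences followed the span of genes. Among protein-coding genes of at most 5 kb, 449 of 1089 rose (41.2%) and 104 fell (9.55%), with a median of 0.19, while among those of 100 to 200 kb 182 of 1616 rose (11.3%) and 677 fell (41.9%), with a median of -0.15. In genes over 200 kb 94 of 959 rose and 370 fell, with a median of -0.13. The medians were 0.20, 0.19 and 0.19 in the shortest class in the single silenced libraries and -0.15, -0.14 and -0.15 in the class of 100 to 200 kb. Single untreated libraries, each against the other 2, gave medians of 0.125, -0.008 and -0.119 in the shortest class and -0.063, 0.015 and 0.049 in the class of 100 to 200 kb. The GC content of these classes also differed, with medians of 58.2% in the shortest and 44.7% in the class of 100 to 200 kb. After correction for GC content and length the medians over the classes lay between -0.048 and 0.024, and 270 genes of 100 to 200 kb rose and 514 fell. CPT-11 alone gave medians of -0.02 in the shortest class and -0.03 in that of 100 to 200 kb, and lovastatin with CPT-11 gave 0.13 and -0.11.

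**Figure D5:**
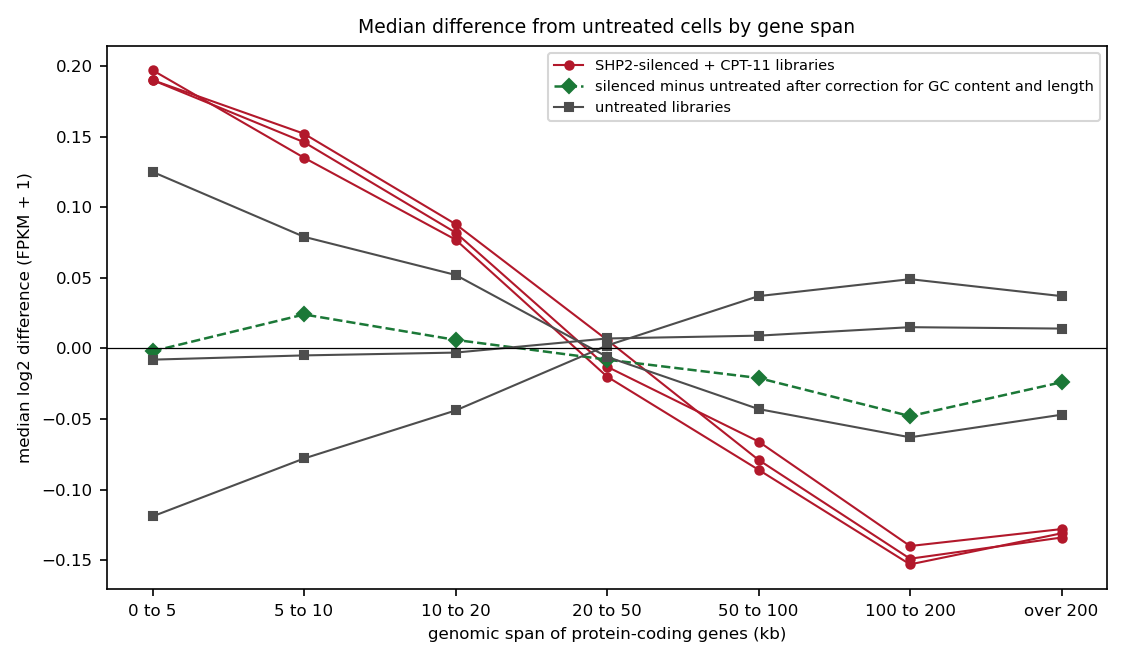
Median log2 difference of protein-coding genes (y axis) by genomic span in kb (x axis). Red lines are the 3 silenced libraries with CPT-11 minus the untreated mean, the green dashed line is silenced minus untreated after correction for GC content and length, and grey lines are untreated libraries minus the mean of the other 2. Silenced libraries go down from 0.19 or 0.20 in the shortest class to about -0.15 at 100 to 200 kb, and the corrected line stays between -0.048 and 0.024.

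Noncoding features were tested by the same rule. Of 1024 antisense RNAs 135 rose and 107 fell, and of 694 long intergenic RNAs 103 rose and 78 fell, against 3263 and 3446 of 13383 protein-coding genes. RN7SL2 was the largest rise of all (3.58 ± 0.25, adjusted p = 4.6e-05), and it varied widely among libraries without the hairpin, at 37.2, 17.6 and 400.2 FPKM with CPT-11 alone. The mitochondrial transfer RNA gene MT-TH measured 152, 198 and 218 FPKM in silenced cells, against 34.04, 20.1 and 40.3 FPKM in untreated cells, and MT-TL2 measured 35.9, 18.4 and 21.8 FPKM in silenced cells, against 6.81, 3.55 and 2.86 FPKM in untreated cells, rises of 2.59 ± 0.24 and 2.30 ± 0.30. UNC5B-AS1, antisense to UNC5B, measured 11.1, 9.89 and 11.3 FPKM in silenced cells, against 1.47, 1.25 and 1.15 FPKM in untreated cells (2.36 ± 0.08, adjusted p = 3.3e-06). MIR6784 rose by 2.53 ± 0.62 and MIR4737 fell, at -1.95 ± 0.46, and both calls were lost when no filter on low genes was set. The processed pseudogenes HSPE1P2, TCEA1P2, AL049872.1 and AL162151.2 fell, at -1.93 ± 0.18, -1.61 ± 0.12, -1.69 ± 0.21 and -1.94 ± 0.42. Their reads may be shared with the genes they copy, and reads of a gene with its antisense partner, which was not tested.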

How the data were processed

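RNA was measured in 12 libraries of HCT-116 cells, of which the 3 silenced and 3 untreated ones were compared. The authors deposited FPKM for 59172 features. Per the submitters' processing notes, featureCounts 1.5.0-p3, HISAT2 2.0.5, DESeq2 1.16.1, StringTie 1.3.3b and hg19 were used, yet all 58735 Ensembl features stand at GENCODE 29 positions, which are on GRCh38. The FPKM values were whole multiples of 1 read in 100% of cases within 0.01 of a read, which gave 14447847 to 16224271 assigned reads per compared library. Genes with at least 10 scaled reads in 3 libraries and 15 in total were tested (17025) with limma 3.58.1 in R 4.3.3 on log2(FPKM + 1), which understates changes of low genes, with Benjamini-Hochberg adjustment at 0.05. Differences from CPT-11 alone and from lovastatin with CPT-11 came from a fit of all 12 libraries. The test was run on simulated data, where it recovered 41.8% of 1.5-fold and 95.5% of 2-fold changes, with 6.02% of 166 calls false. That simulation held far fewer changed genes than were called here and no difference in GC slope between the groups. It thus does not show how the test behaves under that difference. Gene lists (36 and 3 added) and members were chosen with earlier results of these data known. Text names the targeted gene and the 10 largest protein-coding rises and falls, with 5 of other types. It also names at most 5 members per list with the smallest p and some of those that moved against their list. Further members were chosen after their values were seen. Alternatives covered pseudocount, filter, scaling, voom on the recovered reads (8502 genes called), replicate block, GC correction and left-out libraries. The correction for GC content and gene length used a smooth curve per library (5 degrees of freedom) and leaves out 240 genes with no GC value. Promoters came from RefSeq, GRCh38.p14. Some items are not reported here.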

Additional observations from a re-analysis of the deposited data

How the results depend on the processing

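Counts of genes called against untreated cells stayed within 1.5 times of 7739 under every setting tried, from 5844 with no filter on low genes to 8502 with voom, and from 6116 to 8263 when single libraries were left out. After correction for GC content and length 7426 were called, of which 5333 were among the 7739 and 8 of these had turned. Of 255 named genes called, 194 held under all 18 alternatives, 5 more (CD70, ABCA1, KRT20, NOG and ITGAM) held under all but the filter on a mean of 1 FPKM, which left them out, and 56 lost their call under at least 1. The correction moved 67 of the 255 values by over 1.5 times. With the correction, alone and with the replicate block, HRAS (-0.079), TK1 (-0.026), E2F1 (-0.132), FASN (-0.03) and SDF2L1 (-0.047) changed sign. Deviations of same-numbered silenced and untreated libraries were hardly correlated (0.0538, -0.0139 and 0.0225), which cannot tell whether the samples were paired by design. The replicate block gave 7463 calls, or 6798 with the GC correction. Against CPT-11 alone the count was 580 in a fit of those 6 libraries, 2761 with the replicate block, 3150 after GC correction, and 1158 to 7869 when single libraries were left out. Against lovastatin with CPT-11, out of 1325, it was 2620 in a fit of those 6 libraries, 816 with the block, 2285 after GC correction, and 626 to 763 without single libraries. The cause was not tested. Medians by gene span after GC correction, and the GC correction against both drug groups, were computed after the data had been seen. At this depth, genes such as CGAS and IFNB1 could not be tested.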
